A study of Mus musculus with 2 samples.

Results

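The cells described here are 602 barcodes with many UMIs (unique molecular identifiers, each counting 1 captured transcript) of the collagen genes Col1a2 and Col3a1. They were chosen by their UMI counts, with earlier results of these data known, as barcodes with at least 10 Col1a2 and at least 10 Col3a1 UMIs, no Cdh5 UMI, fewer than 5 Col2a1 and fewer than 3 Myh11 UMIs. They also had to pass the quality limits of 2000 to 75000 gene UMIs, more than 500 genes, and mitochondrial and haemoglobin shares each below 5%. Of 14348 barcodes that passed these limits, 602 (4.20%, exact 95% interval 3.87 to 4.54) met the collagen rule, and the other 13746 served for comparison. The rule used expression itself, so every difference between members and other barcodes is given as a description, with no test.

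The study pooled heart and liver cells of C57BL/6 pups with the Cdh5-CreERT2 transgene, in which the Cdh5 promoter, active in endothelial cells (ECs), drives a tamoxifen-inducible Cre recombinase. A single dose of 40 mg/kg 4-hydroxytamoxifen was given at postnatal day 3, and tissues were taken 3 days later, at postnatal days 6 to 7. The 6 groups were iSuRe-Cre heart, iSuRe-Cre liver, control heart, control liver, iSuRe-HadCre heart and iSuRe-HadCre liver, each marked with 1 antibody hashtag, and all were run as 1 10x Genomics library. By the labels the sort kept CD31+ MbTomato+ cells, and the design text also names sorting by presence or absence of the Tomato signal. The iSuRe-Cre allele expresses a membrane Tomato reporter together with Cre, whereas in the iSuRe-HadCre allele Cre is made transiently and the reporter is switched on as the Cre gene is removed. Floxed Notch1 alleles of the iSuRe groups are named only in the paper, and neither it nor the labels state the genotype of the control.

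Mesenchymal cells such as fibroblasts make the interstitial extracellular matrix. They secrete the fibrillar collagens, of which Col1a1 and Col1a2 encode the chains of type I and Col3a1 the chain of type III collagen, and the proteoglycans that bind these fibrils. Prrx1, Twist1 and Pdgfra, a homeobox factor, a basic helix-loop-helix factor and a receptor of platelet-derived growth factor, are widely used to recognise them. They carry positional information, because fibroblasts of head, trunk and limb keep the homeobox genes of the place where they arose.

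The 2 genes of the rule are shown by the stretch of 250 bases before their annotated start, taken from RefSeq for build GRCm38.p6, in which 4 of 6 genes looked up were matched. Capitals mark the letters CCAAT or TATAAA, searched on both strands, and the stretches are written 5′ to 3′ on the gene's strand. The Col1a2 stretch is chr6:4505368-4505617 on the plus strand, and the Col3a1 stretch is chr1:45311288-45311537 on the plus strand.
Col1a2: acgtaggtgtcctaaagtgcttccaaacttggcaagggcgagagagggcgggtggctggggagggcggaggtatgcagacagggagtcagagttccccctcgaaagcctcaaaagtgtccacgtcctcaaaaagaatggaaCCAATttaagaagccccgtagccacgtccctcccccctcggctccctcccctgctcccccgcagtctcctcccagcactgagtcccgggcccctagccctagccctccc
Col3a1: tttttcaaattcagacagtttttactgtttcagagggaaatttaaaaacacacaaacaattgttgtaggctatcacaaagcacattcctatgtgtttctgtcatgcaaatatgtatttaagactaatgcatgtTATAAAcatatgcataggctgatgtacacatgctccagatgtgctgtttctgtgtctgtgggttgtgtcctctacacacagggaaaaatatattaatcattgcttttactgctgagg
CCAAT stood at bases 109 to 105 before the Col1a2 start and occurred on either strand in 33.8% of 32851 RefSeq stretches of the same length. TATAAA stood at bases 117 to 112 before the Col3a1 start and occurred on either strand in 12.4%. No match of one motif overlapped a match of the other in these stretches, and each match is a description of these letters only.

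The members were deeply covered. They held 12541637 gene UMIs in all, from 4580 to 70156 per cell with a median of 18229.5, whereas the other barcodes had a median of 5398. Members had a median of 4849.5 genes detected, against 2395 in the others. A minimum of 10 UMIs of each of 2 genes selects barcodes with many UMIs, so shares of cells with a UMI are also given after thinning every barcode to 2000 UMIs. All intervals are 95% intervals for counting error only, because 1 library gives no spread between animals and cells are not replicates.

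Before the levels, the sort and the tags have to be set beside these cells. The labels call the sample endothelial, yet Pecam1, which encodes CD31, had a UMI in 13.1% of members and in 1.80% after thinning, against 36.5% of the other barcodes after thinning. Over all 13879 genes tested, 7.03% (975 genes) were at least 2-fold higher in members than in the other barcodes and 15.8% (2189) at least 2-fold lower, with a median ratio of 0.99. After subtracting the free RNA estimated from hepatocyte genes the split was 7496 higher and 1288 lower, and the lists below were counted without that subtraction. The estimate, 59.3% for the other barcodes, also took in barcodes rich in hepatocyte UMIs. It is too high on the 9 erythroid genes, which summed to 5247 UMIs per 1000000 UMIs there, against 56924 in free RNA. The split after subtraction thus rests on too large a subtraction from the other barcodes. The 10 endothelial markers were all at least 2-fold lower in members, with a summed level of 93.3 UMIs per 1000000 UMIs (CPM) against 2328 CPM, and Cdh5 was at 0 by the rule. Leaving out every barcode with a Cdh5 UMI can lower the other endothelial genes too, so these values partly follow from the rule. With any Cdh5 count admitted, the ratio of Cldn5 went from 0.0201 to 0.164. The Tomato sequence was at 14.1 CPM in members and 39.4 CPM in the others, and WPRE, a transcript element of the reporter construct, at 91.0 and 208 CPM. Cre had a UMI in 2 members and a level of 0.159 CPM against 11.6 CPM, while FlpE, a recombinase sequence in the reference, was at 75.4 CPM against 48.2 CPM. Of the defining markers of the labelled organs, the 8 cardiomyocyte genes were all at least 2-fold lower, with a summed 27.7 CPM against 183 CPM and Myh7 at 0. The 8 hepatocyte genes were all lower too, with a summed 519 CPM against 3455 CPM.

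The hashtags placed few members in a group. HTODemux, which calls a barcode positive for a hashtag above a background quantile, found no hashtag in 413 members (68.6%, interval 64.7 to 72.3), against 46.5% of the other barcodes. A further 29 members were called doublets and 160 (26.6%) carried a single hashtag, of which 68 were called control heart, 42 iSuRe-HadCre liver, 19 iSuRe-HadCre heart, 18 control liver, 7 iSuRe-Cre liver and 6 iSuRe-Cre heart. These calls were unstable. When the 2 further barcodes of exactly 2000 UMIs were added to the input, an alternative chosen after seeing the data, 201 members had a single call, with 83 in control liver and 37 in control heart. With a fixed limit of at least 25 UMIs and 3 times the next hashtag, 209 members had a single call and 202 of them fell in iSuRe-Cre liver. That hashtag had a median of 22 UMIs in members and 29 in the other barcodes, while no other hashtag had a median above 3. The same limit placed 7614 of 8267 single calls of the other barcodes in iSuRe-Cre liver. At a quantile of 0.95 there were 238 single calls, with 96 in control heart and 66 in iSuRe-HadCre liver. Because the group of a member changed with the setting, and at the main setting only control heart held at least 50 members, no comparison of members between the 6 groups was made. In the control heart members of the main setting Col1a2 was at 1543 CPM, Col3a1 at 1811 CPM and Prrx1 at 437 CPM.

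**Figure D1:**
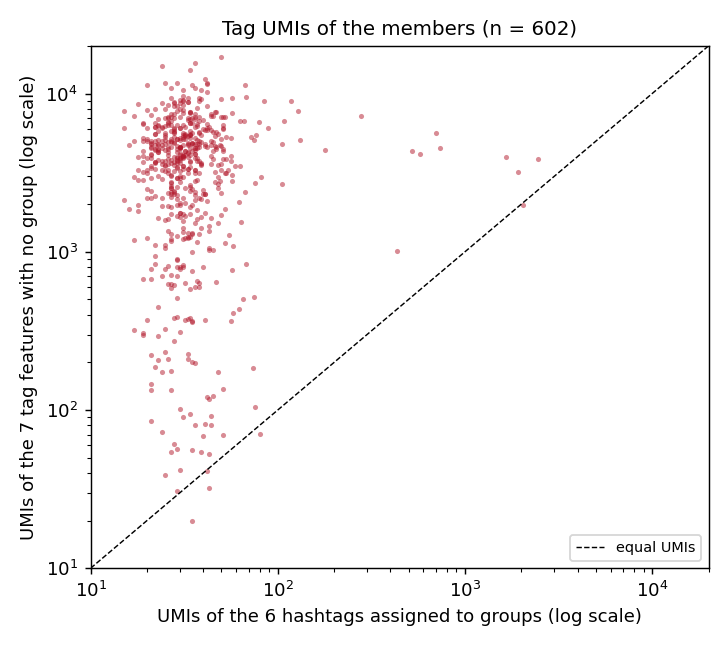
Each point is 1 of the 602 members, with the summed UMIs of the 6 hashtags that the labels assign to groups on the horizontal axis and those of the 7 tag features with no group on the vertical axis, both on log scales. Of the points, 597 lie above the dashed line of equal UMIs.

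The matrix also lists 7 tag features that the labels give to no group. Together they had a median of 3843 UMIs per member (range 20 to 16922), against a median of 31 UMIs (range 15 to 2450) for the 6 assigned hashtags. In the other barcodes the medians were 365 and 47 UMIs. The features with no group exceeded the assigned hashtags in 597 members (99.2%), and in 83.6% of the other barcodes. Which animals or tissues the members came from therefore cannot be told from the labels.

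Col3a1, the gene of type III collagen, had from 1.68 to 178 UMIs per 10000 UMIs over the 602 cells, with a median of 16.1. Col1a2 ranged from 1.68 to 230 with a median of 12.5, so the highest cells lay far above the bulk. Summed over cells, Col3a1 stood at 1852 CPM in members and 211 CPM in the other barcodes, and Col1a2 at 1523 and 216 CPM. These values follow from the rule. Col1a1, the partner chain of Col1a2 and not used by the rule, had a UMI in 99.0% of members and stood at 1466 CPM against 287 CPM, a ratio of 5.11 (interval 5.02 to 5.20).

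**Figure D2:**
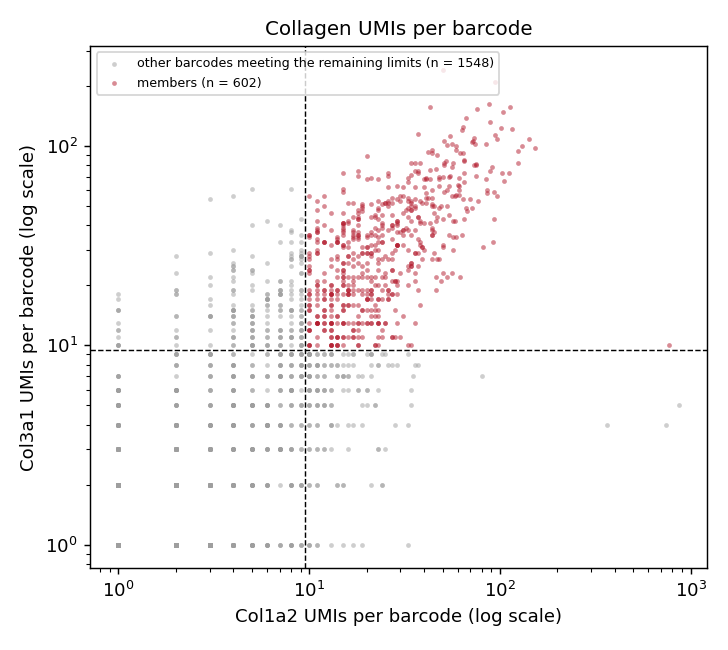
Each point is 1 barcode, with its Col1a2 UMIs on the horizontal and its Col3a1 UMIs on the vertical axis, both on log scales. The 602 members lie above and to the right of the dashed lines at the minimum of 10 UMIs, the 1548 other barcodes meet the remaining limits, and no gap separates the 2 sets along the lines.

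The limit cut through a continuous range of counts. The 115 members whose lower collagen count was 10 to 12 had a Prrx1 UMI in 81.7% and Pdgfra in 80.0% of cells. The 194 barcodes just outside, with a lower count of 7 to 9, had them in 74.7% and 77.8%. A further 198 barcodes failed only through a Cdh5 UMI, and 81.8% of them held Prrx1. Of the 60 that failed only through Col2a1, 90% held Prrx1 and 91.7% Pdgfra. Of the 15 that failed only through Myh11, the myosin gene of smooth muscle, 13.3% held Prrx1. In relative terms, 340 members had both collagens at 0.1% or more of their UMIs, as did 44 other barcodes, whose median was 3557.5 UMIs.

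Prrx1 was named as a marker of these cells but was not part of the rule. It ranged from 0 to 20.4 UMIs per 10000 with a median of 3.00, and 510 of 602 members (84.7%, interval 81.6 to 87.5) held a UMI. After thinning, 45.9% of members and 13.7% of the other barcodes held one. In 123 barcodes with at least 5% hepatocyte marker UMIs and no Cdh5 UMI, which should lack the gene, 13.8% held a Prrx1 UMI at a median depth of 5286 UMIs, and 6.06% after thinning. Pdgfra had a UMI in 84.9% of members, and in 34.1% after thinning against 1.70% of the hepatocyte-rich barcodes. Both shares in members lay above those of the hepatocyte-rich barcodes. Of the 13 mesenchymal markers 12 were at least 2-fold higher than in the other barcodes, and of the 11 that the rule did not use, 10 were. The exception was Mfap5, a microfibril protein, at a ratio of 1.40.

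Beyond the genes of the rule, the 20 genes with the highest ratio after adding 10 CPM to both levels, which lowers the rank of sparse genes, included many matrix genes. Dcn, the proteoglycan decorin, stood at 626 CPM against 84.5 CPM, a ratio of 7.41. It varied widely among members, from 0 to 137 UMIs per 10000 with a median of 2.28, and 72.1% of them held a UMI. Egfl6, a secreted protein with EGF repeats, had a ratio of 8.17, Postn, which encodes periostin, 6.12, and Lum, which encodes lumican, 5.84. Ogn and Aspn, both small proteoglycans, had ratios of 5.89 and 6.44. Ddr2, a receptor for fibrillar collagen, had a ratio of 5.13 and a UMI in 86.7% of members. Zfhx4, a zinc finger homeobox factor, was found in 90.0% of members at a ratio of 4.50, and the RNA-binding protein gene Bicc1 in 88.5% at 4.69. Il1rapl2 and Cdh18 had ratios of 6.04 and 7.42 but were held by 28.2% and 24.8% of members, the tenth of cells with the most UMIs carrying 80.5% and 87.9% of them. The lowest on the same scale included endothelial and neutrophil genes, among them Fabp4, a fatty acid carrier of capillaries, at 57.4 against 3424 CPM, Gpihbp1, the lipase anchor of capillaries, at 6.86 against 372 CPM, and Camp, a neutrophil granule gene, at 3.11 against 291 CPM. The levels of such genes follow the rule closely. With barcodes of any Cdh5 count admitted, the ratio of Fabp4 went from 0.0168 to 0.147 and that of Gpihbp1 from 0.0184 to 0.140, and with a minimum of 5 collagen UMIs that of Camp went from 0.0107 to 0.118.

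**Figure D3:**
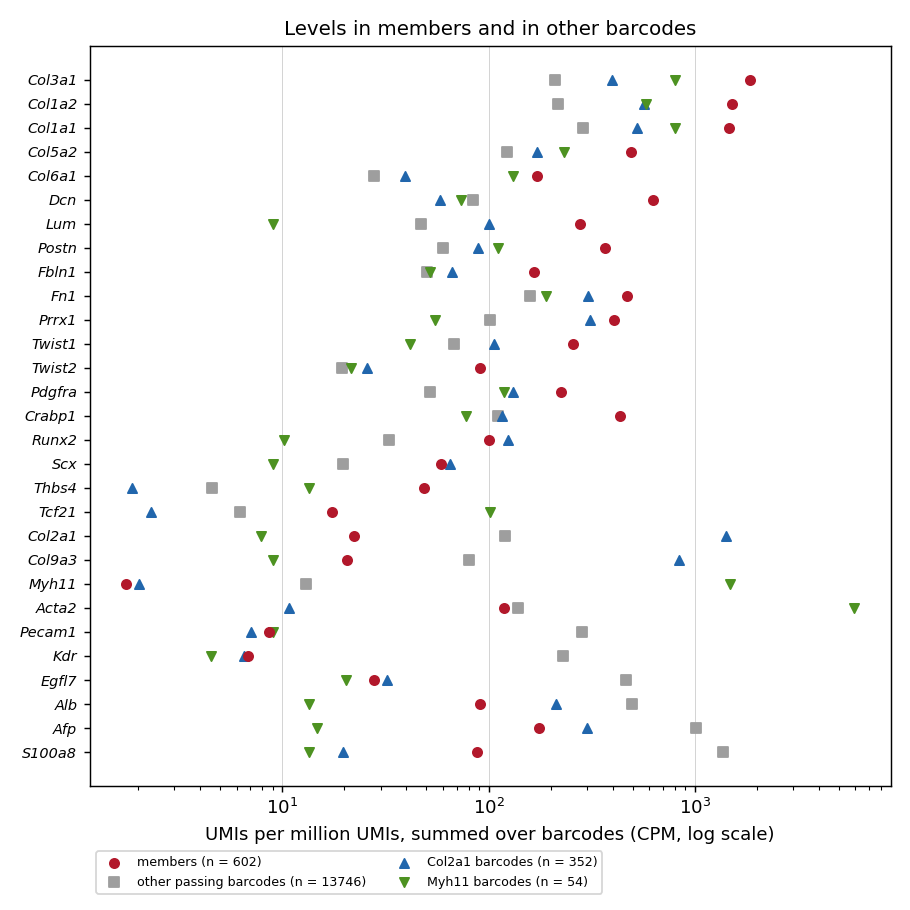
Level of 29 genes in CPM on a log axis, summed over 602 members (circles), 13746 other passing barcodes (squares), 352 Col2a1 barcodes (upward triangles) and 54 Myh11 barcodes (downward triangles). Members have the highest level of the matrix genes from Col3a1 to Fn1, while endothelial Pecam1, Kdr and Egfl7 lie far below the other barcodes.

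Every list count here and below stands beside 7.03% of all tested genes at least 2-fold higher and 15.8% at least 2-fold lower. The fibrillar collagens as a list had 6 of 10 tested genes at least 2-fold higher and 2 lower, with a median ratio of 4.55. The rule itself set Col1a2, Col3a1 and Col2a1, and of the 8 genes other than Col1a2 and Col3a1, 4 were higher. Col5a1 and Col5a2, whose type V chains enter the core of type I fibrils, had ratios of 5.23 and 3.99. Col24a1 had a ratio of 5.11, whereas the cartilage chains Col2a1 and Col11a2 were lower at 0.185 and 0.367, the first by the rule. Among the other collagens 13 of 15 were higher and none lower. The 3 chains of type VI collagen, Col6a1, Col6a2 and Col6a3, had ratios of 6.2, 6.47 and 5.91, and the fibril-associated collagens Col12a1 and Col14a1 had ratios of 4.67 and 3.83. The basement membrane collagens went the other way, with 5 of 8 lower, including Col4a1 at 143 against 694 CPM and Col4a2 at 78.2 against 341 CPM, while Col4a5 and Col4a6 had ratios of 2.28 and 2.12.

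Genes that modify and cross-link collagen were higher to a lesser extent, with 9 of 23 at least 2-fold higher, none lower and a median ratio of 1.87. Adamts2, which removes the amino-terminal propeptide of procollagen, had a ratio of 6.87. Lox and Loxl1, lysyl oxidases that cross-link collagen and elastin, had ratios of 5.38 and 5.00, and Pcolce, an enhancer of procollagen cleavage, 2.83. The collagen chaperone Serpinh1 was found in 99.8% of members at 829 against 442 CPM, a ratio of 1.87, and the hydroxylase subunit P4hb had a ratio of 1.56. The collagen lysyl hydroxylase gene Plod1 had the lowest ratio of the list at 0.616.

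Of the proteoglycan list, 11 of 14 genes were higher and only Hspg2, the basement membrane proteoglycan perlecan, was lower at 37.4 against 144 CPM. Vcan, which encodes versican, had a ratio of 2.87, and Gpc3, a glypican, was found in 98.2% of members at a ratio of 3.40. In the elastic fibre and microfibril list 7 of 16 genes were higher and 2 lower. Fbn2, the fibrillin of developing tissue, stood at 597 against 151 CPM, and Fbn1 at 162 against 78.1 CPM. Eln, which encodes elastin, was lower at 48.7 against 140 CPM and reached 1157 CPM in the Myh11 barcodes. Of the matricellular list 8 of 15 were higher, with Fn1, which encodes fibronectin, at a ratio of 2.95 and Thbs2 at 6.52, while Sparcl1 was lower at 0.235. Of the matrix remodelling list 7 of 14 were higher and Mmp9 lower, and Fap, a membrane protease of fibroblasts, had a ratio of 5.28.

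Of the PDGF list, 3 of 7 genes were higher, beside 7.03% of all genes tested. These were the receptors Pdgfra and Pdgfrb at ratios of 4.35 and 3.52 and the receptor-like Pdgfrl at 2.92. The ligand Pdgfb was lower, at 1.99 against 61.8 CPM, and Pdgfa at 24.5 against 49.1 CPM. In the Wnt list 14 of 23 genes were at least 2-fold higher and none lower, with a median ratio of 2.59. The ligand Wnt5a had a ratio of 3.26, its receptors Ror1 and Ror2 4.28 and 2.97, and the secreted antagonists Sfrp2 and Dkk2 3.50 and 5.62. In the Hedgehog list 5 of 10 were higher, among them the coreceptors Gas1 at 3.06, Cdon at 2.80 and Boc at 2.29 and the factor Gli2 at 2.46, while Ptch1, both receptor and target, had a ratio of 1.09. The Hedgehog list summed to 973 CPM in members, 878 CPM in Col2a1 and 1144 CPM in Myh11 barcodes, so its level was not particular to members. The Wnt list summed to 1681, 1071 and 1375 CPM in the same sets.

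The TGF-beta and BMP list had 7 of 25 genes higher and 3 lower, beside 7.03% and 15.8% of all genes tested. Tgfb2 and Tgfb3 had ratios of 2.46 and 3.00, whereas Tgfb1 stood at 9.49 against 77.4 CPM. The BMP antagonist Grem1 had a ratio of 5.49. Of the FGF list 5 of 14 were higher, with the ligands Fgf7, Fgf10 and Fgf18 at 7.67, 4.54 and 4.42 and the receptor Fgfr1 at 2.30, and Fgfr3 was lower at 0.259. In the list of insulin-like growth factor and imprinted genes 11 of 17 were higher. Igf1 had a ratio of 4.14 and Igf2 of 2.58. The imprinted genes Dlk1, Peg3 and Plagl1 had ratios of 3.43, 3.36 and 3.36, and Cdkn1c, an imprinted inhibitor of cyclin-dependent kinases, stood at 2316 against 1032 CPM. Igfbp7 was lower at 40.7 against 489 CPM. This last list summed to 7833 CPM in members, 6384 CPM in Col2a1 and 4065 CPM in Myh11 barcodes.

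Among secreted signals to vessels and nerves 7 of 19 genes were higher, beside 7.03% of all genes tested. The lymphatic growth factor gene Vegfd had a ratio of 7.63, Angpt1, a ligand of the endothelial receptor Tie2, 3.11, and the guidance genes Sema3a, Slit2 and Slit3 had 4.07, 3.30 and 3.70. Kitl, the ligand of the receptor Kit, was lower at 51.1 against 292 CPM. Of the 4 Notch receptor genes 1 was lower, Notch4 at 1.36 against 11.6 CPM, while Notch1 stood at 25.9 against 38.5 CPM, Notch2 at 64.3 against 55.3 CPM and Notch3 at 25 against 13.7 CPM. The 19 cell cycle genes had none at least 2-fold higher or lower and a median ratio of 0.947. A UMI of Mki67 or Top2a was held by 47.7% of members and 50.4% of the other barcodes, and by 24.2% and 33.0% after thinning.

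The transcription factor list had 26 of 53 genes at least 2-fold higher and 2 lower, with a median ratio of 1.99. Prrx1 stood at 404 against 102 CPM, a ratio of 3.97 (interval 3.84 to 4.10). Twist1 and Twist2 had ratios of 3.76 and 4.63, Osr1, an odd-skipped factor of connective tissue, 5.01, and Tbx15 and Ebf2 4.74 and 4.23. Zeb1 was nearly equal in both sets at 263 and 260 CPM. The lower genes were Foxf1, a factor of visceral mesenchyme, at 10.0 against 49.3 CPM, and Lhx2, at 11.9 against 34.1 CPM. The whole list summed to 4619 CPM in members, 3783 CPM in Col2a1 and 4196 CPM in Myh11 barcodes.

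Many factors of this list mark body regions. Hox genes with higher numbers are used further toward the tail and along the limb, while facial mesenchyme lacks them and uses Alx1 and Alx4, Tbx5 marks the forelimb and also the heart, and Tbx4 and Pitx1 mark the hindlimb. A UMI of any of 39 Hox genes was held by 464 members (77.1%, interval 73.5 to 80.4). After thinning the share was 45.2%, against 31.3% of the other barcodes. It was 42.5% in the Col2a1 barcodes and 56.8% in the Myh11 barcodes, so it was not particular to the members. Of the members, 138 held no Hox UMI, 111 held paralogues 1 to 5 only, 99 reached paralogues 6 to 8, and 254 (42.2%) held a UMI of paralogues 9 to 13. Of 31 Hox genes tested, 9 were at least 2-fold higher and none lower, beside 7.03% and 15.8% of all genes tested. Among the 9 were Hoxa11 at a ratio of 4.06, Hoxc10 at 2.75, Hoxc8 at 2.87 and Hoxc4 at 3.57, while Hoxa13 stood at 1.02 and Hoxd13 at 0.610.

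**Figure D4:**
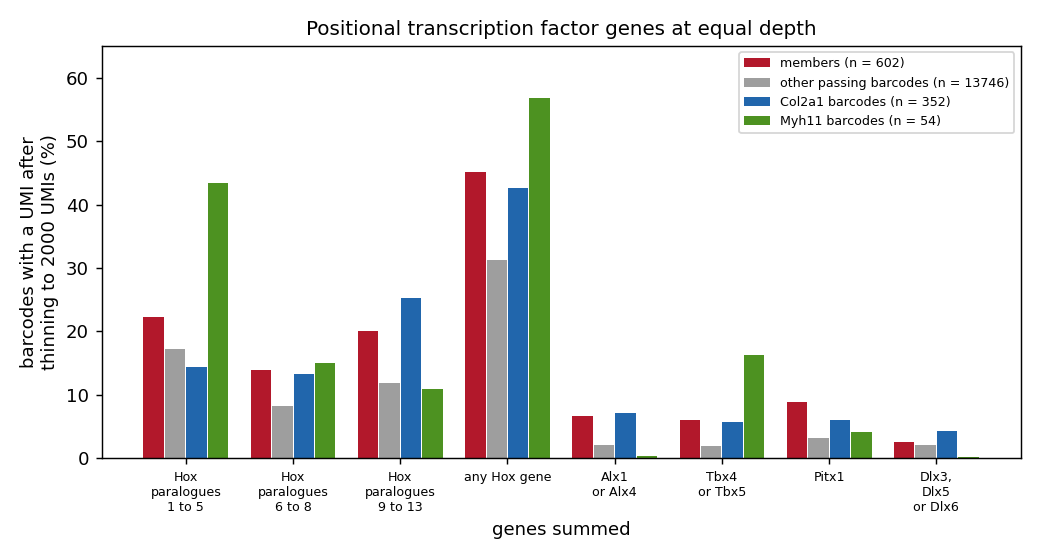
Bars show the percentage of barcodes with a UMI of the named genes after every barcode was thinned to 2000 UMIs, in members, other passing barcodes, Col2a1 barcodes and Myh11 barcodes, with no error bars because the library is 1. Alx1 or Alx4 reaches 6.66% in members and 7.13% in Col2a1 barcodes, against 2.12% of the other passing barcodes and 0.361% of the Myh11 barcodes.

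A UMI of Alx1 or Alx4 was held by 154 members (25.6%), and by 6.66% after thinning against 2.12% of the other barcodes. Because single UMIs can come from free RNA, cells were also split at 3 UMIs. With at least 1 UMI, Hox genes were held by 63.0% of the 154 members with Alx1 or Alx4 and by 81.9% of those without. With at least 3 UMIs, 388 members had Hox genes only, 36 Alx1 or Alx4 only, 13 both and 165 neither. At that minimum Hox genes were present in 26.5% of the members with Alx1 or Alx4 and in 70.2% of those without, at median depths of 18013 and 18236 UMIs. Tbx4 or Tbx5 had a UMI in 25.4% of members and 5.98% after thinning, against 2.00% of the others. The thinned share was 5.79% in the Col2a1 and 16.3% in the Myh11 barcodes. Pitx1 had a UMI in 23.9% of members, and in 8.94% after thinning against 3.25% of the others. In the Col2a1 and Myh11 barcodes its thinned share was 5.97% and 4.16%. Genes used in several body regions were thus present among the members.

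Lists for fibroblasts of the labelled organs gave mixed values. In the list of epicardial cells and cardiac fibroblasts 4 of 7 genes were higher, Tcf21 at 17.5 against 6.23 CPM, Tbx18 at 23.9 against 6.89 CPM, Tbx20 at 26.6 against 3.21 CPM and Upk3b at 14.1 against 2.13 CPM. They were sparse, since 9.80% of members held Tcf21, 4.65% Tbx20 and 1.83% Upk3b, and Gata4 was lower at 11.2 against 23.9 CPM. In the hepatic stellate cell list 2 of 7 tested genes were higher and 2 lower. Lrat, the retinol-storing enzyme that defines those cells, had a UMI in 1.16% of members, and Reln stood at 21.8 against 30.0 CPM.

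In the dermal fibroblast list 6 of 8 genes were higher, with Crabp1, a retinoic acid binding protein, at 433 against 111 CPM and in 64.3% of members, and Dpt, which encodes dermatopontin, at a ratio of 15.5 but in 11.1% of members. Dpp4, also in that list, was lower at 9.01 against 35.2 CPM. In the tendon list 6 of 7 were higher, with Scx, the factor of tendon progenitors, at 58.9 against 19.7 CPM, Tnmd, which encodes tenomodulin, at 27.0 against 3.88 CPM, and Thbs4 at 48.8 against 4.58 CPM. In the osteoblast list 3 of 7 tested genes were higher, 1 was lower and 3 were neither. The higher ones were Runx2 at 101 against 33.1 CPM, Phex at 23.4 against 4.32 CPM and Sp7 at 3.99 against 1.19 CPM. Of the 10 chondrocyte markers 8 were lower and none higher, Col2a1 among them, and the limit on Col2a1 UMIs removed barcodes rich in these genes by construction.

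The remaining lists showed few differences in the higher direction, beside 7.03% of all tested genes higher and 15.8% lower. In the smooth muscle list 1 of 7 genes was higher, the actin-binding Tagln at 116 against 54.5 CPM, and 1 was lower, Myh11, by the rule. Of 8 pericyte markers 2 were higher and 3 lower, of 7 tested myogenic markers 1 and 3, of 7 tested meningeal markers 2 and 2, and of 4 tested mesothelial markers 1 and 0. All 8 macrophage markers and the 3 tested adipocyte markers were lower, with Adipoq at 0 in members. Of the keratinocyte, neuron, and neural progenitor or glia lists, 6 of 7, 5 of 6 and 4 of 7 genes were lower and none higher. In the immediate early list Fosb was higher at 276 against 108 CPM, and the heat shock genes Hspa1a and Hspa1b were lower. None of the 4 Y-linked genes tested differed 2-fold, and 26.9% of members and 23.8% of the other barcodes held a UMI of one after thinning.

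The bone matrix gene Ibsp shows how 1 cell can carry a sum. It stood at 183 CPM over the 602 members, but 2109 of its UMIs lay in 1 barcode, and without that barcode its level was 15.0 CPM. The same barcode had 768 Col1a2, 925 Col1a1 and 10 Col3a1 UMIs, with the next highest member at 153 Col1a2 UMIs. Without it Col1a1 was at 1396 CPM and Col3a1 at 1857 CPM. Over all 9819 genes with at least 100 UMIs in members, 38 had at least 50% of their UMIs in 1 cell. They included hepatocyte genes, such as Afp with 2024 of 2207 UMIs and Alb with 1028 of 1146, and neutrophil genes, such as S100a8 with 635 of 1101.

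Across the 602 cells, Col1a1 and Col1a2 went together with Pearson's r of 0.776 and Col1a2 with Col3a1 at 0.645, on log-normalized values. Col6a1 and Col6a2 had r of 0.650 and Dcn and Lum 0.570, whereas Prrx1 and Pdgfra had r of 0.0958. These cells share 1 library, and the UMIs of Col1a2, Col3a1 and Prrx1 went with depth (Spearman's rho of 0.258, 0.278 and 0.228), so the values are descriptions only.

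The 352 Col2a1 barcodes and 54 Myh11 barcodes that lack Cdh5 served as 2 further sets for comparison. They were taken without the collagen minimum. Only 60 barcodes met that minimum and failed just the Col2a1 limit, and 15 just the Myh11 limit. Differences in matrix genes can thus follow in part from the collagen minimum. In those 60 barcodes Prrx1 stood at 488 CPM. Against the Col2a1 barcodes 388 of 9135 genes (4.25%) were at least 2-fold higher in members and 183 (2.0%) lower. Prrx1 stood at 404 and 310 CPM, a ratio of 1.30 (interval 1.24 to 1.37), and Runx2 and Scx at ratios of 0.809 and 0.904, while Dcn had a ratio of 10.8, Egfl6 of 6.08 and Igf1 of 5.68. Against the Myh11 barcodes 625 of 7995 genes (7.82%) were higher and 270 (3.38%) lower. Prrx1 had a ratio of 7.31 and Lum of 30.6, Col6a1 of 1.32 and Igf1 of 1.11, and the contractile gene Acta2 stood at 118 CPM in members and 5920 CPM in Myh11 barcodes.

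Clustering the members on 1500 variable genes gave 8 clusters of 114, 110, 102, 77, 76, 62, 41 and 20 cells. Clusters are called by number and no cell type name is given, because fewer than 3 of the 10 leading genes of each were markers of 1 type, apart from cluster 5, whose hepatocyte genes came nearly all from 1 barcode. Leading genes define a cluster and are no result. Cluster 1 was led by Dpt, Clec3b, Zfp804b, Mfap5, Ifi27l2a and Plac9a. In cluster 1, 2 cells held 79.6% of the Ifi27l2a and 68.75% of the Clec3b UMIs. Among genes shared by many of its cells were Dlk1, held by 96.5% of them against 83.2% of the other members, and Igf1, held by 82.5% against 54.7%. It had the highest Col3a1 level of the clusters, at 2966 CPM, and Dcn at 1163 CPM.

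Cluster 2 was led by Chgb, Ube2c, Nusap1, Cenpf, Hmmr and Top2a, mostly genes of mitosis, and its median depth was 25959 UMIs. Top2a, the topoisomerase of dividing cells, was held by 91.8% of its cells and Mki67 by 97.3%, against 11.8% of the cells of cluster 3 for Mki67. Chgb rested on 1 cell with 355 of 357 UMIs. Cluster 3 was led by C1qtnf3, Tafa1, Thbs4, Brinp3, Tnmd and Gas2. Meox2, a homeobox factor, was held by 65.7% of its cells against 31.2% of the other members, Scx by 52.0%, and 90.2% held a Hox UMI.

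Cluster 4 was led by Lix1, Twist2, Apcdd1, Irx1, Irx5 and Car10, of which Car10 had 69.9% of its UMIs in 2 cells of the cluster. Twist1 was held by 100% of the cells of cluster 4 against 77.3% of the other members, Twist2 by 85.7% against 39.0%, and Crabp1 stood at 819 CPM. Cluster 5 was led by the hepatocyte genes Afp, Alb, Apoa2, Apoa1, Trf and Ttr, but 2 cells held 99.1% of its Afp UMIs. Without the 8 members that held 10 or more hepatocyte, neutrophil or macrophage marker UMIs, a choice made after seeing the data, it was led by Upk3b, Myl7 and Krt7, and Tcf21 was held by 56.0% of its cells against 3.08% of the other members. Tbx15 was held by 3.95% of the cells of cluster 5, and its Prrx1 level of 170 CPM was the lowest of the 8 clusters.

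Cluster 6 was led by Ibsp, Rxfp1, Ifitm5, Ecrg4, Hoxa7 and A3_BC10R, with 2 cells holding 99.9% of its Ibsp UMIs. For Ifitm5, A3_BC10R, Rxfp1 and Ecrg4 the 2 highest cells held 98.9%, 92.3%, 91.7% and 76.3%. More widely shared were Runx2, the factor of bone formation, held by 67.7% of its cells against 26.3% of the other members, and Scx, held by 59.7%. Cluster 7 was led by Fabp7, Luzp2, Alx1, Lrriq1, Mgat4c and Ptprz1. In cluster 7, 2 cells held 98.7% of the Mgat4c, 84% of the Luzp2 and 76.3% of the Fabp7 UMIs. Msx1, a homeobox factor of facial and limb mesenchyme, was held by 65.9% of its cells against 8.20% of the other members, Alx1 by 51.2% and Pax3 by 56.1%, while 34.1% of its cells held a Hox UMI. Cluster 8 was led by S100a9, S100a8, Stfa1, Retnlg, Cstdc5 and Cstdc4, neutrophil genes of which S100a8 lay in 4 cells. In it 2 cells held 99.8% of the S100a8 and 99.2% of the S100a9 UMIs. Without the 8 members named above it kept 14 cells and was led by Ccl5, found in 1 cell, Nrgn and Cd52. The 20 cells of cluster 8 had a median of 27892.5 UMIs, 100% of them held Prrx1 and 85.0% Mki67.

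**Figure D5:**
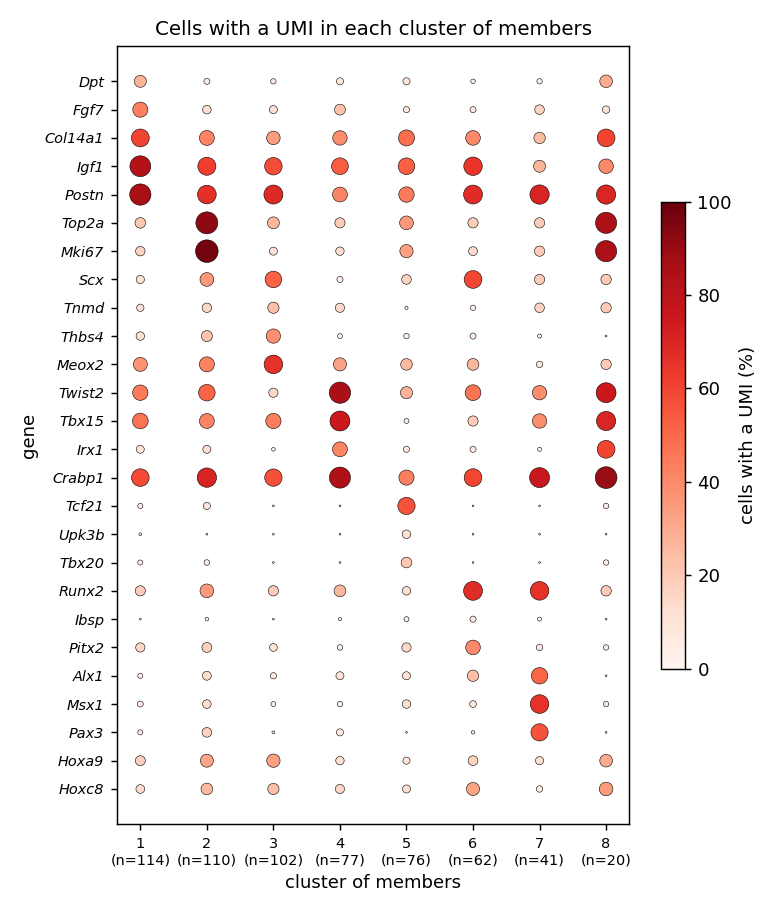
Dot size and colour give the percentage of cells with a UMI for 26 genes (vertical axis) in the 8 clusters of members (horizontal axis, with the number of cells). Tcf21 is widest in cluster 5 at 56.6%, Alx1 in cluster 7 at 51.2% and Top2a in cluster 2 at 91.8%.

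Transcripts of other cell types were spread unevenly over the members. Of the 8 hepatocyte genes none was at 0, and their summed level over members ranged from 0 to 85046 CPM per cell with a median of 56.0, 187 members holding none and 2 members holding 10 UMIs or more. The 20 highest members held 89.5% of these UMIs. The 7 neutrophil genes, all at least 2-fold lower, had a summed 208 CPM against 3424 CPM, and the 20 highest members held 88.7% of them. The 9 erythroid genes, all lower, had a summed 1097 CPM against 5247 CPM and were found in every member. Without the 8 members above, 1008 genes were at least 2-fold higher and 2230 lower, compared with 975 and 2189 with them. Scored on hepatocyte genes, members held 8.90% of the level in free RNA, the RNA of barcodes with 10 to 100 UMIs, and the other barcodes 59.3%. The value of the members rested mostly on the 20 highest members. On the 9 erythroid genes, some of which the haemoglobin limit caps, members held 1.93% of the level in free RNA. The other barcodes include the hepatocyte-rich ones, which raise their share. The 9 erythroid genes had a summed 5247 CPM in the other barcodes and 56924 CPM in free RNA.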

How the data were processed

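One 10x Genomics library was used, listed as 2 samples, its gene expression and its hashtag reads. Cell Ranger 7.1.0 was run by the authors against GRCm38 plus the transgenes, and they deposited raw UMI counts per barcode, without normalization, for 2755147 barcodes and 21951 genes. Per the labels, 6 hashtags mark 6 groups, and hashtag numbers were matched to features of the same number. A further 7 tag features have no group and were used only as a sum. No other columns of per-sample values were left aside.

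The members and the gene lists were chosen with earlier results of these data known. Genes named are those of the lists, the 20 highest and 10 lowest log2 ratios (10 CPM added) and the 6 leading genes of each cluster. Genes widely shared by a cluster's cells, or held by 1 cell, were picked with their values in view. UMIs were summed over barcodes and divided by their total (CPM). A gene was tested if it had at least 200 UMIs over all passing barcodes, and called at a ratio of at least 2 or at most 0.5, with no p-value. Ratios have exact conditional, shares exact binomial 95% intervals. Thinning to 2000 UMIs gives the mean over all draws. HTODemux (Seurat 5.3.0, R 4.3.3) was run on passing barcodes with more than 4 hashtag UMIs at a quantile of 0.99. Doublets were only those of HTODemux and were kept among members, whatever the call. Members were clustered with Leiden in scanpy 1.11.5 (20 components, 15 neighbours, resolution 0.5) without sex, transgene, haemoglobin and mitochondrial genes. Python 3.11.15 and scipy 1.17.1 were used. Counts for members against other barcodes over 13879 genes were also simulated from the Poisson distribution that the intervals assume. Changed genes were set well beyond the limit of the call. Of these 100% were called, and 95.6% of intervals held the simulated ratio. Both outcomes follow from this setting and do not show how changes near the limit are called. Whether the intervals hold for the real counts, where some genes have most of their UMIs in 1 cell, was not tested. Of 511 listed genes 508 were in the file.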

Additional observations from a re-analysis of the deposited data

Results flagged for a closer look

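Members without a hashtag call were outside every group of the study. They numbered 413 of 602, and the hashtags that the labels assign were the reason to set them apart. The 7 tag features that the labels give to no group held a median of 3843 UMIs per member, a signal in data that no comparison of the groups uses, against 31 UMIs for the 6 assigned hashtags. What these features mark was not given in the sources used here, and their part in the levels of the members was not tested.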

How the results depend on the processing

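No paired analysis was possible because 1 library holds all groups and no result comes from a test. Intervals cover counting error only. Of the alternatives, at least 5 Col1a2 and Col3a1 UMIs gave 934 members with Prrx1 in 80.3% of them, and at least 20 gave 299. Requiring both collagens at 0.1% of UMIs gave 384 members, with Prrx1 in 80.7%. Thinning to 2000 UMIs gave Prrx1 in 45.9%. Without a filter on low counts 1968 genes were at least 2-fold higher and 4813 lower. After subtracting free RNA, whose share was estimated from hepatocyte genes, 7496 were higher and 1288 lower, and the cause was not tested. The other barcodes include hepatocyte-rich ones, and their estimated share of 59.3% is too high on the erythroid genes. These summed to 5247 CPM in the other barcodes and 56924 CPM in free RNA, so the subtraction was too large. Clustering at resolution 1.0 gave 15 clusters. The other 39 planned and 5 added values of these results stayed within 1.5 times the main count or within the counting interval. For the single genes named, 247 planned values moved by less than the counting interval and 162 by more, with none changing direction. Over these alternatives the ratio of Col3a1 ranged from 7.84 to 158, that of Lum from 5.11 to 64.1 and that of Egfl6 from 7.05 to 33.2, each highest after subtracting free RNA. The ratio of Col1a1 ranged from 3.99 to 14.1, that of Prrx1 from 3.54 to 11.7 and that of Dcn from 5.91 to 17.4.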
